A study of Mus musculus with 8 samples.

Results

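Open chromatin was examined around 8 genes that encode transcription factors of epithelial identity, Grhl1, Grhl2, Ovol1, Ovol2, Elf3, Elf5, Ehf and Klf5, in ATAC-seq peak lists from mouse mammary tumor cells. The genes were set by name and make up 8 of the 21755 protein-coding genes of GENCODE M21. A peak was assigned to a gene when it overlapped the gene body or lay within 20 kb of an annotated transcription start site (TSS). Peaks of all 8 libraries were merged into 183173 regions, and 95 of these lay in the windows of the 8 genes. The cells were lines derived from PyMT tumors, in which the polyomavirus middle T oncogene drives mammary cancer, from mice whose strain is labelled FBV/N. They were either WT or Lats1-CKO, meaning that Lats1, which encodes a kinase of the Hippo pathway, was deleted in the tumor epithelium. Sorting took cells high in CD49f and separated them by EpCAM, which was high in luminal and low in basal-like cells, before a short expansion in culture and Tn5 tagmentation. Each of the 4 groups had 2 libraries. The luminal libraries were BM1 and BM5 from WT and BM3 and BM7 from Lats1-CKO cells, and the basal-like libraries were BM2 and BM6 from WT and BM4 and BM8 from Lats1-CKO cells. The middle T oncogene was present in all groups, and every group is a culture of tumor cells, so no group stands for normal gland.

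GRHL factors bind the enhancers and promoters of junction genes and keep epithelial chromatin accessible. OVOL factors are zinc finger repressors that oppose the epithelial-mesenchymal transition (EMT), in large part by silencing Zeb1. Elf3, Elf5 and Ehf are ETS factors restricted to epithelia, of which Elf5 directs the alveolar fate of luminal progenitors, and Klf5 is a Krüppel-like factor of proliferating basal and progenitor cells. In the mammary gland these factors are used together as a signature of the epithelial state.

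The libraries held between 14753 and 99022 peaks. BM3 stood apart with the lowest number, and the study's methods mention a Lats1-CKO luminal replicate that was left out for poor quality but is not named in the text used here. BM3 was kept, and the tests by genotype and by population were repeated without it. The height of a peak is given as its score percentile within its own library, where 100% is the highest-scoring peak, because the deposited scores were not normalized between libraries. Of 5 luminal marker genes, 5 and 4 carried a promoter peak, one that comes within 1 kb of any TSS, in WT luminal libraries, 4 and 4 in WT basal-like, 3 and 4 in Lats1-CKO luminal, and 2 and 2 in Lats1-CKO basal-like libraries. Of 5 basal-like marker genes, 1 to 3 had such a peak in any library, and Trp63, which defines basal cells, had none in any. Lats1 itself carried a promoter peak in every library except BM3, with a score percentile between 53.6 and 62.4 in WT and between 74.7 and 81.5 in the other 3 Lats1-CKO libraries. Without BM3, 10.3% of 14561 genes were likewise higher at promoters in every Lats1-CKO than in any WT library. The median difference over all these genes was 4.84 points. A promoter peak lies outside coding exons, and it checks neither the deletion nor the labels.

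At their first TSS, the most upstream start that GENCODE M21 gives, 5 of the 8 genes lacked a peak in both Lats1-CKO basal-like libraries. These were Grhl2, Ovol1, Ovol2, Elf3 and Ehf, and each of them had a peak within 500 bp of that TSS in both WT luminal libraries. Grhl1, Elf5 and Klf5 had such a peak in both Lats1-CKO basal-like libraries. Of the 7 factors with a first-TSS peak in BM1 and BM5, 5 thus had none in BM4 and BM8, whereas this held for 2.29% of the 8724 protein-coding genes with a first-TSS peak in BM1 and BM5. This comparison and the 500 bp window were chosen after the values were seen, and with 2 libraries per group it has no test. Elf3, an ETS factor of simple and glandular epithelia (ENSMUSG00000003051, chr1:135253575-135258568, minus strand), showed it over the 2 WT populations as well. The region over its first TSS reached percentiles of 88.4 (BM1) and 83.9 (BM5) in WT luminal and of 83.8 (BM2) and 51.0 (BM6) in WT basal-like cells. In Lats1-CKO luminal cells its percentile was 60.6 (BM3) and 72.0 (BM7). BM4 and BM8 had no peak there, so they were below all 6 other libraries.

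**Figure D1:**
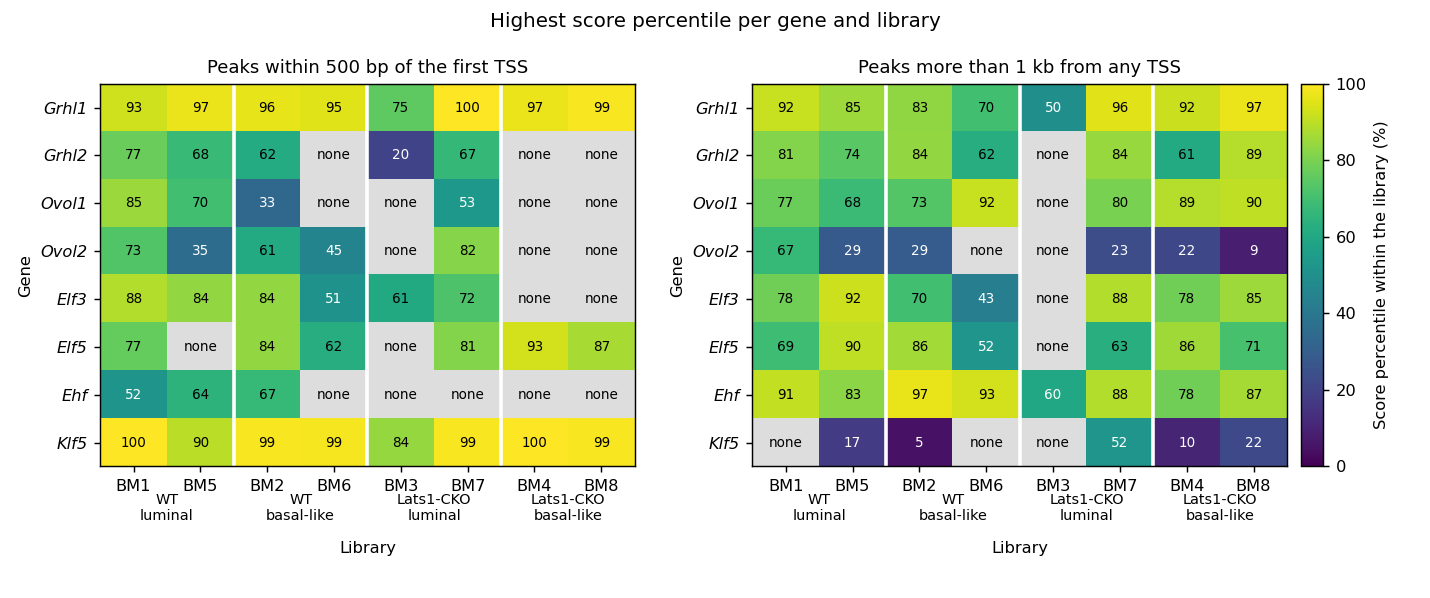
Highest score percentile of a peak (color and printed value, %) for each of the 8 genes (rows) in each of the 8 libraries (columns, ordered by group), within 500 bp of the first TSS on the left and more than 1 kb from any TSS of the gene on the right. Grey cells have no peak; at the first TSS the grey cells of BM4 and BM8 fill the rows of Grhl2, Ovol1, Ovol2, Elf3 and Ehf, whereas on the right both libraries have a peak in every row.

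Ovol2 (ENSMUSG00000037279, chr2:144305175-144332146, minus strand), a repressor of mesenchymal genes, had the same pattern as Elf3 apart from BM3. Its first-TSS region stood at 72.8 (BM1) and 35.5 (BM5) in WT luminal, at 61.1 (BM2) and 45.1 (BM6) in WT basal-like, and at 81.9 in BM7, and had no peak in BM3, BM4 or BM8. A second Ovol2 region lay 0.986 kb into the gene, with its centre 165 bp from another annotated TSS of Ovol2. This second region was present in both Lats1-CKO basal-like libraries, at 21.6 in BM4 and 8.57 in BM8. It stood at 4.48 to 36.1 in the 3 other libraries that had it. No Ovol2 peak was therefore above a percentile of 21.6 in BM4 or BM8. Its paralog Ovol1 (ENSMUSG00000024922, chr19:5549136-5560646, minus strand) had a first-TSS percentile of 84.8 in BM1 and 69.8 in BM5, of 33.2 in BM2 and of 53.2 in BM7, with no peak in BM6, BM3, BM4 or BM8. For Ovol1 the 2 WT basal-like libraries therefore differed from each other in whether the peak was there.

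Grhl2 (ENSMUSG00000022286, chr15:37233036-37363569, plus strand), which sustains transcription of E-cadherin and claudin genes, had a first-TSS percentile of 77.0 in BM1 and 67.7 in BM5. It was 61.7 in BM2, 20.1 in BM3 and 66.7 in BM7, and BM6, BM4 and BM8 had no peak. All 4 luminal libraries thus had a Grhl2 first-TSS peak, against 1 of the 4 basal-like libraries. Ehf (ENSMUSG00000012350, chr2:103263433-103303278, minus strand), an ETS factor of ductal and glandular epithelia, had its first-TSS peak in WT cells only, at 51.7 in BM1, 64.5 in BM5 and 67.0 in BM2, and none in BM6 or in any of the 4 Lats1-CKO libraries. Over all genes with a first-TSS peak in BM1 and BM5, 1.47% had none in either Lats1-CKO luminal library. Ehf was 1 of 7 factors in that class.

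Of the 5 factors with a first-TSS peak in both WT basal-like libraries, Ovol2 and Elf3 had none in either Lats1-CKO basal-like library, where the share over all genes was 1.12%. None of the 7 factors with a first-TSS peak in BM1 and BM5 lacked it in both WT basal-like libraries (1.04% over all genes). The first-TSS counts by library were 8 and 7 of 8 in WT luminal, 8 and 5 in WT basal-like, 4 and 7 in Lats1-CKO luminal, and 3 and 3 in Lats1-CKO basal-like. Over all protein-coding genes the share with a first-TSS peak was 48.2% in BM4 and 49.0% in BM8, within the range of 41.6% to 49.8% of the 4 WT libraries. BM4 and BM8 thus had as many genes with a first-TSS peak as WT libraries and fewer of the 8 factors. The pattern depended on the width used. Within 1 kb of the first TSS only Grhl2 and Ehf kept it, as did 188 of the 9391 genes with such a peak in BM1 and BM5 (2.00%), and within 1 kb of any annotated TSS none of the 8 did, where 1.74% of all genes did. When each library was reduced to its 10000 highest-scoring peaks, only Elf3 kept it, among 3 factors that had a first-TSS peak in both WT luminal libraries, and the share over all genes was 9.82%.

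The sequences just upstream of 3 first TSSs are shown, in GRCm38 and in the direction of transcription, for a factor that lacked this peak in Lats1-CKO basal-like cells (Elf3) and 2 that had it (Elf5 and Grhl1). Each is the part of the region that lies upstream of the TSS, or its central 240 bases. Capitals mark matches, on either strand, to the motifs GRHL (AACNNGTT), ETS (CCGGAAG), KLF (CCNCNCCC), OVOL (CCGTTA), AP-1 (TGANTCA), TEAD (CATTCC), RUNX (ACCACA) and E-box (CAGGTG). In Elf3, at chr1:135258569-135258723, a KLF and a TEAD match overlap and an E-box match follows. In Elf5, at chr2:103411429-103411668, there is a RUNX match and then an AP-1 match. In Grhl1, at chr12:24571998-24572237, there are 2 KLF matches in GC-rich sequence. A match is a string of letters and not a shown binding site.
Elf3: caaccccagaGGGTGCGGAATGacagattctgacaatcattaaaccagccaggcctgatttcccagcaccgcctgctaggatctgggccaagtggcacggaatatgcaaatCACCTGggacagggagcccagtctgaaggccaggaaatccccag
Elf5: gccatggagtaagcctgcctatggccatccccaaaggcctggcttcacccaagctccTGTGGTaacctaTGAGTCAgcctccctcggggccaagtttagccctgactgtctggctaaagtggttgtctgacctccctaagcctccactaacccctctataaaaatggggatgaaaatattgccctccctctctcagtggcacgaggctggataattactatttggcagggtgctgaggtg
Grhl1: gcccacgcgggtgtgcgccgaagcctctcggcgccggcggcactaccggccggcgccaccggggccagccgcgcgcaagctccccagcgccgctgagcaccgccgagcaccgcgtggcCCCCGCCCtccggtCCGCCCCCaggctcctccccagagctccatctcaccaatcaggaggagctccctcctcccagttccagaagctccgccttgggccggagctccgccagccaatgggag

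The other 3 factors had first-TSS peaks in both Lats1-CKO basal-like libraries. Klf5 (ENSMUSG00000005148, chr14:99298691-99315036, plus strand) had, on average, the highest promoter of the set, at 99.7 in BM1, 89.7 in BM5, 98.8 in BM2, 98.7 in BM6, 84.1 in BM3, 99.0 in BM7, 99.7 in BM4 and 98.9 in BM8. Grhl1 (ENSMUSG00000020656, chr12:24572283-24617391, plus strand), which acts chiefly in stratified epithelia, had 92.9 in BM1, 96.9 in BM5, 96.4 in BM2, 95.2 in BM6, 75.3 in BM3, 99.6 in BM7, 97.1 in BM4 and 99.1 in BM8. Both promoters were at a percentile of 75.3 or above in every library. Elf5 (ENSMUSG00000027186, chr2:103411688-103450989, plus strand) had 76.6 in BM1, 83.7 in BM2, 62.4 in BM6, 81.4 in BM7, 93.3 in BM4 and 86.7 in BM8, and no first-TSS peak in BM5 or BM3. The 2 highest Elf5 values were those of the Lats1-CKO basal-like libraries, in contrast to the ETS factors Elf3 and Ehf, whose first-TSS peak these libraries lacked. In basal-like libraries the mean Elf5 first-TSS percentile was 81.5 ± 13.4 (SD, n = 4) and in luminal libraries 39.5 ± 45.6 (n = 4), with an exact permutation p of 0.171 (two-sided), so the difference was within the spread between libraries.

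Peaks away from the TSS were present at the same genes in Lats1-CKO basal-like cells. Each of the 8 genes had at least 1 peak more than 1 kb from any of its TSSs in both BM4 and BM8, including the 5 without a first-TSS peak there, and so did 72.4% of all 21755 protein-coding genes. For Elf3 the only such peak in BM4 was at the TSS of the neighboring gene Rnpep. Such regions numbered 31 in BM4 and 41 in BM8, against 30 and 25 in WT luminal, 32 and 18 in WT basal-like, and 4 and 42 in Lats1-CKO luminal libraries. Within 1 kb of a TSS the numbers were 7 in BM4 and 12 in BM8, against 15 and 12 in WT luminal, 14 and 6 in WT basal-like, and 4 and 16 in Lats1-CKO luminal libraries. In Ehf, an intronic region 25.4 kb into the gene had a peak in all 8 libraries, with percentiles of 90.7 and 82.7 in WT luminal, 96.6 and 93.3 in WT basal-like, 59.7 and 88.4 in Lats1-CKO luminal, and 78.4 and 86.7 in Lats1-CKO basal-like libraries. A second intronic Ehf region, 13.5 kb from the first TSS, was also present in all 8, between 27.1 (BM6) and 87.6 (BM7). Ehf thus had intronic peaks in every library whether or not its promoter had one.

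Upstream of Ovol1, a region 11.9 kb from the first TSS stood at 67.4 and 36.7 in WT luminal (BM1, BM5), 73.3 and 91.6 in WT basal-like (BM2, BM6), 67.6 in Lats1-CKO luminal (BM7, with no peak in BM3), and 89.0 and 90.5 in Lats1-CKO basal-like libraries (BM4, BM8). All 4 basal-like libraries were above all 4 luminal libraries there; this region was named by a rule that picks the largest such difference, so the order is a description only. In Grhl1 an intronic region 28.8 kb into the gene was present in all 8 libraries, at 87.2 and 85.3 in WT luminal, 81.9 and 69.4 in WT basal-like, 10.6 and 91.1 in Lats1-CKO luminal, and 92.0 and 97.1 in Lats1-CKO basal-like libraries. In Elf3, a region 0.706 kb upstream of the first TSS was present at 54.9 in BM4 and 64.1 in BM8, at 40.4 in BM1, 22.3 in BM2 and 25.7 in BM6, and absent from BM5, BM3 and BM7. The highest values of this upstream Elf3 region were thus in the 2 libraries that lacked the peak over the TSS. The highest distal Elf3 peak, 9.81 kb upstream, had percentiles of 42.8 to 92.5 in every library except BM3, and it is the one at the TSS of Rnpep. Likewise, an Ovol1 region 7.21 kb upstream lies at the TSS of Ap5b1, and all 6 downstream Elf5 regions lie in the body of Cat, so these cannot be assigned to the factors alone. The Ovol1 region 11.9 kb upstream lies on the far side of Ap5b1 from Ovol1, so it cannot be assigned to Ovol1 alone either.

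**Figure D2:**
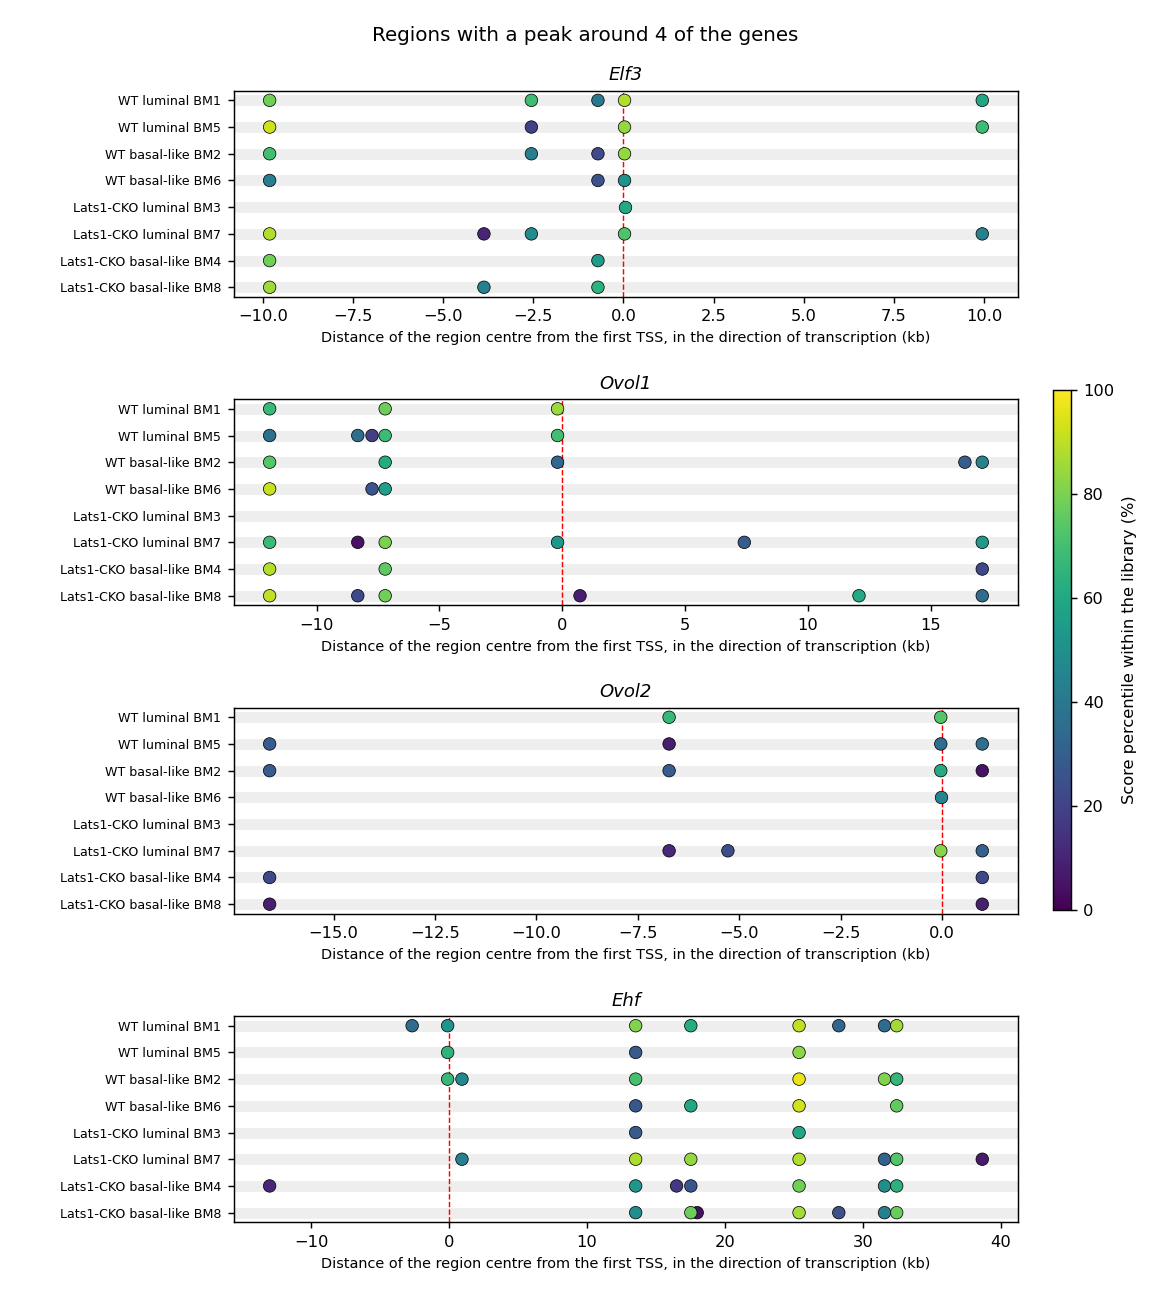
Regions with a peak around Elf3, Ovol1, Ovol2 and Ehf, by the distance of the region's centre from the first TSS in kb (x axis, in the direction of transcription) and by library (rows, grouped); the color of a dot is the score percentile within the library and the dashed line is the first TSS. BM4 and BM8 have no dot on the dashed line in any of the 4 genes, whereas dots at 11.9 kb upstream of Ovol1 and at 25.4 kb into Ehf recur in them.

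The central bases of 3 of these distal regions are shown as examples of sequence open in both Lats1-CKO basal-like libraries: Ovol1 at chr19:5572437-5572676, Ehf at chr2:103277784-103278023 and Grhl1 at chr12:24600969-24601151, in the direction of transcription of the gene. None of the 8 motifs occurs in the printed Ovol1 and Ehf bases, and the Grhl1 bases hold 1 TEAD match, in capitals.
Ovol1 distal: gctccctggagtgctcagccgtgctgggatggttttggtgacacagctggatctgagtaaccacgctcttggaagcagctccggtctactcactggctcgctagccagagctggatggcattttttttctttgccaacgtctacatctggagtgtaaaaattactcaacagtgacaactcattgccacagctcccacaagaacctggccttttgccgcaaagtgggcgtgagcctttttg
Ehf distal: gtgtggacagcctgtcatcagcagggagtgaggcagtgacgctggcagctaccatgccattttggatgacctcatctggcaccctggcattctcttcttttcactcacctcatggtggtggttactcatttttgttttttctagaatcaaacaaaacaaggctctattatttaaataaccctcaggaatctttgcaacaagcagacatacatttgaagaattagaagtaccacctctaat
Grhl1 distal: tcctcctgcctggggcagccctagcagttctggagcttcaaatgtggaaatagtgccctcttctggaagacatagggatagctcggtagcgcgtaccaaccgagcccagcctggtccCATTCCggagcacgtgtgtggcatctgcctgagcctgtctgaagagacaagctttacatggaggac

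In the central 200 bp of the 95 regions the AP-1 motif was present in 30.5%, against 26.1% of all 183173 regions, and the KLF motif in 30.5% against 23.1%. TEAD matches were in 16.8% against 15.8%, RUNX in 18.9% against 21.6%, E-box in 14.7% against 13.6%, and ETS in 1.05% against 2.17%. The GRHL motif was in 3 of the 95 regions, 3.16% both here and over all regions, and 1 of the 3 was the region over the first TSS of Ovol1. The OVOL motif was in 3 regions (3.16% against 1.09%), among them the first-TSS region of Ovol1 and a region 9.95 kb downstream of the Elf3 TSS. RefSeq promoters (GRCm38.p6) were found for Elf3, Elf5, Ovol2 and Grhl1, 6 in all, and held the E-box in 3 and the KLF motif in 3, against 20.2% and 49.5% of 32851 promoters.

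The 8 windows together held 46 and 40 peaks in the WT luminal libraries (BM1, BM5), 48 and 27 in the WT basal-like (BM2, BM6), 8 and 61 in the Lats1-CKO luminal (BM3, BM7), and 40 and 55 in Lats1-CKO basal-like libraries (BM4, BM8). Per 10000 peaks of the library these were 6.33 and 6.80, 6.81 and 5.24, 5.42 and 6.53, and 4.64 and 5.55. The groups overlapped on both scales except that per 10000 peaks both WT luminal libraries were above both Lats1-CKO basal-like libraries. Grhl2, the gene with the widest window, held the most peaks of the 8 genes in 6 of 8 libraries, from 1 in BM3 to 15 in BM7, and its 21 intronic regions were more numerous than those of any other member. Of the 95 regions, 21 lay within 1 kb of a TSS, 41 in introns, 22 upstream, 10 downstream and 1 in an exon. Regions found in a single library made up 35.8% of the 95 and 44.5% of all regions, and those found in all 8 libraries 5.26% and 5.95%. The 5 regions present in all 8 libraries were the Grhl1 and Klf5 promoters, the Grhl1 intronic region and both Ehf intronic regions.

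**Figure D3:**
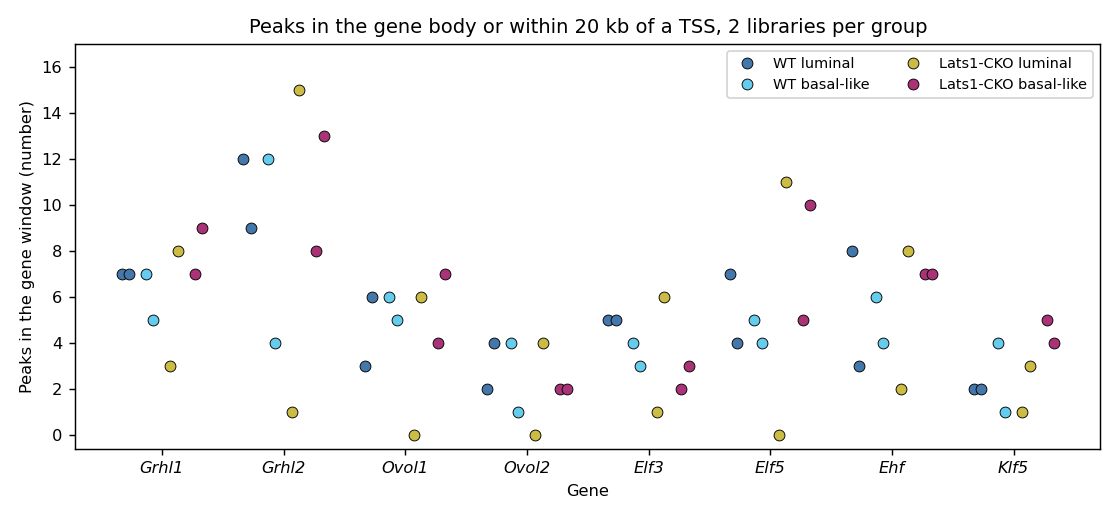
Number of peaks in the window of each gene (y axis) by gene (x axis), with 1 point per library colored by group. The 2 points of a group are often as far apart as those of different groups, and the lowest point of most genes is the Lats1-CKO luminal library BM3.

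Whether the deletion or the sorted population went with a difference was tested over 4 against 4 libraries by exact permutation, for every gene with a peak in at least 1 library. No factor separated the Lats1-CKO from the WT libraries without overlap. At promoters, within 1 kb of a TSS, 0 of 8 factors did so against 1.12% of 14571 genes, for the highest peak in the window 0 of 8 against 1.08% of 19295 genes, and for peak number 0 of 8 against 0.0985%. At the first TSS, the count was also 0 of 8, against 1.14% of 12478 genes. All 8 factors had a lower mean promoter percentile in Lats1-CKO than in WT libraries, with a median difference of -19.8 points, against -1.28 over all genes, of which 56.8% were lower. Without BM3, 5 of 8 were lower and Grhl1, Elf5 and Klf5 were higher in Lats1-CKO, with a median difference of -14.8 points, against 4.84 over all genes, of which 24.8% were lower. With all 8 libraries the largest difference was that of Ovol1, with 15.4 ± 25.5 (SD, n = 4) in Lats1-CKO and 46.9 ± 38.1 in WT (n = 4; exact permutation p = 0.257, two-sided). Elf3 at its first TSS had the smallest p of the genotype comparisons, with 33.1 ± 38.5 against 76.8 ± 17.3 (n = 4 each; exact permutation p = 0.0857). The smallest p that 4 against 4 libraries allow is 0.0286, and every Benjamini-Hochberg adjusted p over all genes was 1. With 1 library left out, Elf3 without BM6 (0.963% of all genes) and Ovol2 without BM7 (1.91%) reached the smallest exact permutation p at promoters, which is 0.0286 for 3 against 4 libraries too. With 3 against 4, groups can lie apart without reaching that p. This was so for Grhl1, which was higher in Lats1-CKO without BM3, as 11.1% of all genes lay apart there, and for Ehf without BM6 (2.72%).

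No factor separated basal-like from luminal libraries without overlap either, by promoter percentile (0.933% of all genes), window percentile (1.16%), peak number (0.275%) or first-TSS percentile (0.914%). Grhl2 came closest, with a promoter percentile of 17.6 ± 29.7 in basal-like and 57.9 ± 25.6 in luminal libraries (SD, n = 4 each; exact permutation p = 0.0571, two-sided; adjusted over all genes 1). Without BM3, the Ovol1 promoter was at 10.4 ± 15.7 in basal-like (SD, n = 4) and 69.3 ± 15.8 in luminal libraries (n = 3; exact permutation p = 0.0286), the smallest p possible, which 219 of 14561 genes reached. The Grhl2 promoter, at 17.6 ± 29.7 and 70.4 ± 5.67, also lay apart without BM3 (exact permutation p = 0.0571), as did 3.61% of all genes. The Grhl2 promoter had a percentile of 8.57 in BM8 only through a peak at an internal TSS. The median promoter difference of the 8 factors, basal-like minus luminal, was -13.2 points, against 5.59 over all genes, whereas for the highest peak in the window it was 7.15 against 5.98. At promoters 5 of 8 were lower in basal-like libraries, and over the whole window 2 of 8. Without BM3 the promoter count was 5 of 8 too, with a median difference of -23.7 points against -0.44 over all genes. In the limma fit with genotype and population as terms, no factor passed an adjusted p of 0.05 in any of the 6 comparisons. No other gene did either, with 0 of 14571 by promoter percentile and 0 of 19295 by each window measure, so this is not particular to the 8 factors.

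Genes known as targets of these factors in epithelia showed fewer promoter peaks in Lats1-CKO basal-like cells. They include all 5 luminal marker genes counted above, Krt8, Krt18, Krt19, Epcam and Cdh1, so the counts of these lists are not separate observations. Of 15 target genes, 15 and 14 had a promoter peak in WT luminal, 13 and 10 in WT basal-like, 10 and 14 in Lats1-CKO luminal, and 3 and 3 in Lats1-CKO basal-like libraries. Of the 14 targets with such a peak in BM1 and BM5, 11 had none in BM4 and BM8, against 1.74% of all genes. They included Cdh1, which encodes E-cadherin, the claudin genes Cldn3 and Cldn4, the splicing regulator Esrp2 and Epcam, the gene of a sorting marker. Esrp1, Cldn7 and Krt8, also among the 14, kept a peak in BM4 or BM8. Esrp1 was at 97.7 in BM8 only, Cldn7 at 27.4 in BM4 only, and Krt8 at 50.3 in BM4 and 43.0 in BM8. Krt19, not among the 14, was at 67.5 in BM4 and 1.83 in BM8, against 2.89 in BM1 and no peak in BM5. The target list was drawn up with earlier results of these data known. Epcam and Krt18, both among the 11, had already been seen to lack peaks, so the count is a description only. Cdh1 had a percentile of 89.1 and 91.4 in WT luminal, 87.9 and 67.2 in WT basal-like, 79.3 and 92.9 in Lats1-CKO luminal libraries, and no promoter peak in BM4 or BM8. Basal-like cells of both genotypes were sorted as EpCAM-low and then expanded. The Epcam promoter was at 66.1 in BM2 and 22.5 in BM6. The study reports that sorted WT basal-like cells turned partly luminal over several passages, whereas Lats1-CKO basal-like cells kept their phenotype. The part of such a shift in these libraries was not tested. Over Lats1-CKO against WT, 2 of the 15 targets, Cldn3 and Krt18, were lower in every Lats1-CKO library than in any WT library, against 0.721% of all genes, and none had an adjusted exact permutation p under 1. When each library was reduced to its 10000 highest-scoring peaks, the counts of targets were 7 and 6, 2 and 1, 7 and 2, and 0 and 1. Both basal-like groups were then low, and so was the Lats1-CKO luminal library BM7. The share over all genes was 19.7% (BM2) to 28.1% (BM3) in this setting.

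Of 6 EMT factors that OVOL and GRHL proteins oppose, 5 and 4 had a promoter peak in WT luminal, 6 and 4 in WT basal-like, 3 and 5 in Lats1-CKO luminal, and 6 and 6 in Lats1-CKO basal-like libraries. Over all protein-coding genes the share with a promoter peak was 57.2% in BM4 and 58.3% in BM8. Twist2 had a promoter peak in BM2 at 10.9, in BM4 at 46.6 and in BM8 at 67.0, and in no other library. Zeb1 had one at 30.4 to 45.1 in every library except BM6 and BM3. None of the 6 separated the groups without overlap in either comparison of promoter percentiles. Of 13 other members of the same families, 8 to 10 had a promoter peak in each library and none separated the groups. Tfcp2l1, of the Grhl superfamily, was the only one of these 13 with a promoter peak in BM1 and BM5 and none in BM4 and BM8. Of 10 other lineage factors, 6 to 9 had a promoter peak in each library, and none separated the groups. Without BM3, Elf2 and Stat5a were higher in every Lats1-CKO than in any WT library (10.3% of all genes), and Tfap2c and Cebpb were lower in every basal-like than in any luminal library (2.88%).

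**Figure D4:**
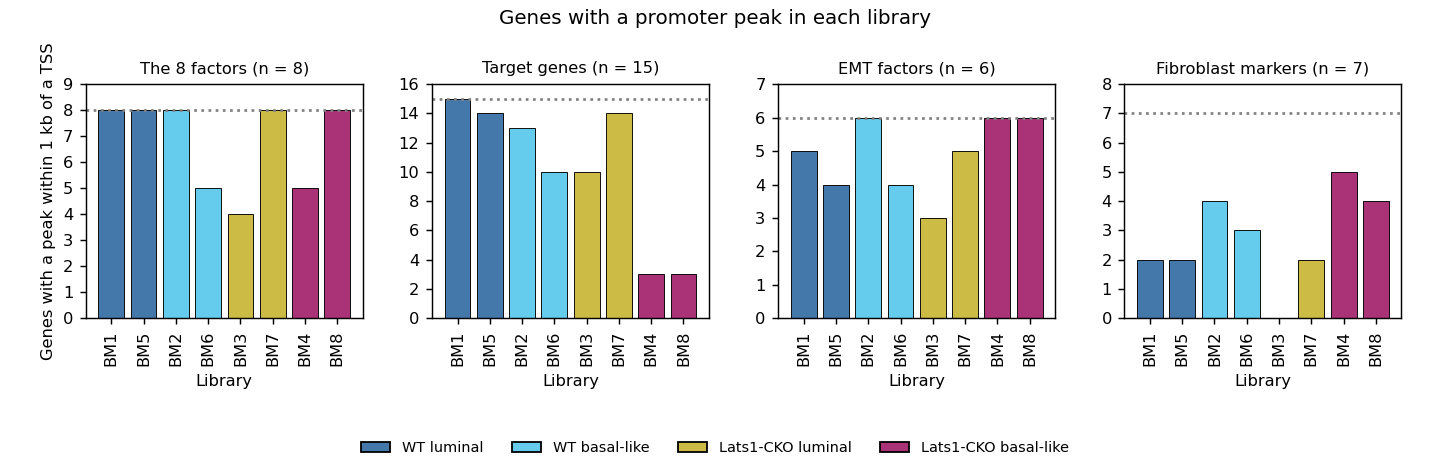
Number of genes with a promoter peak, within 1 kb of any TSS (bars, y axis) in each library (x axis, ordered and colored by group) for the 8 factors, 15 target genes, 6 EMT factors and 7 fibroblast markers; the dotted line is the size of the list. The bars of BM4 and BM8 are the lowest among the target genes, at 3 each. They reach the full list of 6 among the EMT factors, as does that of BM2. Bars count all peaks of a library, and the libraries differ in peak number.

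Promoter peaks of markers of other cell types were counted in the same libraries. Over all protein-coding genes, 57.2% had a promoter peak in BM4 and 58.3% in BM8, and 34.6% (BM3) to 59.3% (BM7) in the other libraries. The study describes a fibroblast-like subpopulation in the Lats1-CKO cultures that kept LATS1. Of 7 fibroblast markers, 5 and 4 had a promoter peak in Lats1-CKO basal-like libraries, against 2 and 2 in WT luminal, 4 and 3 in WT basal-like, and 0 and 2 in Lats1-CKO luminal libraries. Their summed promoter percentile was 259 in BM4 and 211 in BM8, 101 and 70.6 in WT luminal, 164 and 173 in WT basal-like, and 0 and 118 in Lats1-CKO luminal libraries. Col3a1 had no promoter peak in any library, Thy1 had one in BM4 only, and 2 of the 7, Pdgfra and Pdgfrb, were higher in every basal-like than in every luminal library, against 0.727% of all genes. For Pdgfra the groups barely lay apart, with 78.676 in the basal-like BM2 against 78.668 in the luminal BM1. Pdgfrb had no promoter peak in any luminal library and was at 22.3 (BM2) to 89.9 (BM4) in basal-like libraries. Of 6 immune markers, 3 and 4 had a promoter peak in Lats1-CKO basal-like libraries and 0 to 3 in the others, with summed percentiles of 203 and 235 against 0 to 163, and Cd3e and Itgam had none in any library. Of 4 endothelial markers, 0 to 2 had a promoter peak in each library, with summed percentiles of 0 to 89.3. The part of these cell types in the missing first-TSS peaks was not tested, and in bulk libraries fewer cells with an open promoter and a less open promoter per cell cannot be told apart.

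Among all other protein-coding genes, the 5 whose promoter percentile over the 8 libraries was most like the mean of the 8 factors included Fcho1 (Pearson's r = 0.97), Ercc1 (0.97), Tfap2c (0.96) and BC048403 (0.96). Of these, Tfap2c is itself a lineage factor of mammary luminal and trophoblast cells. The mean of the factors was 80.5 and 71.4 in WT luminal, 73.2 and 44.0 in WT basal-like, 30.0 and 74.6 in Lats1-CKO luminal, and 45.8 and 49.9 in Lats1-CKO basal-like libraries, so BM6, BM3, BM4 and BM8 were low. For the highest peak in the window the 5 were Nop53, Abt1, Usp33, Aifm3 and Erlin1, with r of 0.99 to 1.00. These correlations run over 8 libraries that differ in peak number, with BM3 far below the rest, and are a description.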

How the data were processed

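ATAC-seq was performed by the authors on sorted and briefly expanded cells. After trimming (cutadapt) and unique alignment to mm10 (Bowtie 1.0.0), reads were cleared of mitochondrial reads, Picard (2.3.0) duplicates and long fragments. Peaks were called per library with MACS2 (version 2.1.1.20160309 in the submitters' processing notes; the paper names another) and cleared of blacklisted regions. The deposited lists hold positions and a score that the authors left unnormalized; it was taken for the MACS2 score from its values (at least 13 in every list). The lists hold no read counts, so the depth of each library is unknown and no counting interval is given; an absent peak means that none was called.

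Scores were ranked within each library, and a gene without a peak was set to 0. Peaks were assigned to GENCODE M21 protein-coding genes with an overlap of at least 1 bp, within 1 kb of a TSS or in the 20 kb window. Differences were tested by two-sided exact permutation over the 35 splits of 4 against 4 libraries, with Benjamini-Hochberg adjustment over all genes with a peak, and by limma (3.58.1) as an alternative. A gene was counted as called at the smallest p, which with 4 against 4 libraries means no overlap between the sides. With 1 library left out, genes that lay apart at a larger p were counted separately. The study speaks of biological replicates, and the labels do not say whether the 2 libraries of a group came from separate cultures. If they did not, p-values measure only the spread between these libraries, which may be technical. Regions were named by fixed rules: per gene, the region with the highest mean percentile, those with the largest difference in each direction of each comparison, and those present in all 8 libraries. The 500 bp window, its counts, and Twist2 and Tfcp2l1 were chosen after their values were seen. The members and the gene lists, including the targets, were chosen with earlier results of these data known, and Krt18 and Epcam among the targets had already been seen to lack peaks. Sequence came from GRCm38.p6 through pysam 0.24.0. Scripts ran in R 4.3.3 and in python 3.11.15 with scipy 1.17.1, numpy 2.4.6 and pandas 2.3.3, and both tests were tested on simulated data. Expression data were not analysed here, and some items that met these rules are not reported here.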

Additional observations from a re-analysis of the deposited data

How the results depend on the processing

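No paired analysis was possible because the labels give the libraries no replicate numbers, and the numbers given in accession order pair nothing. Of 98 recomputed counts 91 equalled the main count, apart from a 4 in place of a 5 among them, and most were 0. Leaving out 1 library at a time gave 0 to 1 factors at the smallest exact p by promoter percentile between genotypes (Elf3 without BM6, 0.963% of all genes; Ovol2 without BM7, 1.91%), 0 to 1 by window percentile between genotypes (Ovol2 without BM7, 2.03%), and 0 to 1 by promoter percentile between populations (Ovol1 without BM3, 219 of 14561 genes), and 0 in the 3 other comparisons. At the first TSS these were Ehf without BM6 (0.972%) and Ovol2 without BM7 (2.03%) between genotypes, and Elf3 without BM2 (0.861%) and Ovol1 without BM3 (1.53%) between populations. Counted by lack of overlap alone, 0 to 2 factors lay apart in each comparison, against up to 14.2% of all genes (between genotypes without BM3). Per 10000 peaks of the library, 1 factor (Elf3) was separated between populations by peak number, as were 1.94% of all genes. The count of 5 factors with a first-TSS peak in both WT luminal and neither Lats1-CKO basal-like library stayed at 5 without any 1 of those 4 libraries, became 2 within 1000 bp of the first TSS and 1 when each library was reduced to its 10000 highest-scoring peaks, and was 4 with peaks above the median score. These settings for the first-TSS count were chosen after seeing the data. Without read counts, depth limits every statement on an absent peak, most of all in BM3.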
